A study of Mus musculus with 12 samples.

Results

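Triglyceride lipolysis in fat was followed through 5 genes: the lipases Pnpla2, Lipe and Mgll, the coactivator Abhd5 and the inhibitor G0s2. They were taken as every probe on the array whose RefSeq accession belongs to 1 of these genes, which gave 10 probes, all of them tested, and 5 genes of the 14710 named genes tested. The groups were subcutaneous white adipose tissue (scWAT) and brown adipose tissue (BAT) of wild-type (WT) mice and of littermates that lack the receptor LR11 (Lr11-/-), with 3 one-colour arrays per group and 12 in all. All groups shared the C57Bl6/J background, male sex, an age of 12 weeks and a high-fat diet with 60% of calories from fat. The labels give both 4 weeks of this diet and feeding since weaning, so its length is not settled. The knockout was carried in all tissues of the animal and not in fat alone. The methods name an n per group equal to the number of arrays without saying whether a sample was 1 mouse or a pool. The p-values thus measure the spread between these samples, and those of limma take 1 spread shared by all 4 groups. Each gene is given as the log2 of its brightness minus the log2 of its array's 75th percentile, called its level below. A level of 0 is thus the brightness that 75% of the spots do not exceed, and levels of different probes are not comparable with each other. In bulk tissue, fewer cells of a type and less RNA per cell cannot be told apart.

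Fat cells store triglyceride in lipid droplets and release it as fatty acids and glycerol in 3 steps. PNPLA2, also called ATGL, removes the first fatty acid, LIPE, also called hormone-sensitive lipase, acts mainly on the diglyceride that is left, and MGLL splits the last monoglyceride. ABHD5, also called CGI-58, binds PNPLA2 and activates it, whereas G0S2 binds the same enzyme and inhibits it. In brown fat the released fatty acids fuel heat production and activate the uncoupling protein UCP1. Catecholamines start the pathway through beta-adrenergic receptors, cyclic AMP and protein kinase A, which phosphorylates LIPE and the droplet protein perilipin 1.

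The sequences upstream of 3 genes are shown: the lipase of the first step and its inhibitor, which are the pair past the threshold between the tissues, and the lipase of the second step. Each is the 250 bases before an annotated start in RefSeq (GRCm38.p6), read along the gene's strand, and capitals mark GGGCGG (the GC box, on either strand) and CACGTG (an E-box).
Pnpla2, chr7:141454938-141455187, plus strand: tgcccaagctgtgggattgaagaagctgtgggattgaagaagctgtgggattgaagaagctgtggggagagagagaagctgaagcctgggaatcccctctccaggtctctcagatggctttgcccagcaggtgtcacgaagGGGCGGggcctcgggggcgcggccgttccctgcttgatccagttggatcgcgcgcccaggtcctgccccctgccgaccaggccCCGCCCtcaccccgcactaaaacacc
Lipe, chr7:25395988-25396237, minus strand: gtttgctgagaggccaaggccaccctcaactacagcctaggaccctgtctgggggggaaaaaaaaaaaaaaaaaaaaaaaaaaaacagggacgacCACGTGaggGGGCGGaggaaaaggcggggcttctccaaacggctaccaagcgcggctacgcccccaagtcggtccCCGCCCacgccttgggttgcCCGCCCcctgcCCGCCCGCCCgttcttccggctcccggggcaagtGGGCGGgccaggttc
G0s2, chr1:193273189-193273438, minus strand: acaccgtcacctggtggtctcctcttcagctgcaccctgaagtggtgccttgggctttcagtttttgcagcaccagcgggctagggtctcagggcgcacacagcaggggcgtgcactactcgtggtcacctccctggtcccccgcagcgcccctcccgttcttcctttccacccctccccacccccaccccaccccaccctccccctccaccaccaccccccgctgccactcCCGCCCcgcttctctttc
All 5 genes were found in the promoter table, with 2 starts for Lipe and for Mgll. GGGCGG was found 2 times before the start of Pnpla2, 6 times before the Lipe start shown and 1 time each before those of Abhd5 and G0s2 and before the other of the Mgll starts. It was not in the window of the other Lipe start or of the first Mgll start. It stands in 32.7% of all 32851 windows of this length. CACGTG was found 1 time in the Lipe window shown and 1 time in the window of the first Mgll start, against 6.02% of all windows. GTAAACA, a motif of forkhead factors, was found 1 time before the other Lipe start and 1 time before the first Mgll start, against 3.17%. CCAAT and TATAAA, held by 33.8% and 12.4% of all windows, were in none of the 7 windows of these genes. Such matches describe the letters only.

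Sorl1, the gene of LR11, read 0.91, 0.96 and 1.15 on the WT arrays of scWAT against -3.57, -3.56 and -2.87 on the knockout arrays, and every knockout array was likewise lower for BAT. Its difference was -4.34 ± 0.42 (log2, SE, limma adjusted p = 0.0063) in scWAT and -3.63 ± 0.42 (adjusted p = 0.032) in BAT, although whether the probe lies in the deleted part is not given in the sources used here. The number of spots well above background was 32377 to 37002 per array. The scWAT arrays did not form tight groups. For Pnpla2 the SD was 1.59 in WT scWAT and 0.54 in Lr11-/- scWAT, against 0.37 in WT BAT and 0.27 in Lr11-/- BAT. The shared spread of the limma fit was, for each of the 5 genes, larger than that of either BAT group and smaller than that of WT scWAT. Its intervals are thus wide for BAT, and its SEs are small for comparisons with WT scWAT. WT scWAT replicate 2 was low in fat cell genes, with a mean level of 2.55 over 6 adipocyte markers against 5.40 to 7.07 on the other scWAT arrays, and adiponectin at 3.84 against 6.61 to 8.55. Lr11-/- scWAT replicates 2 and 3 had Ucp1 at 9.75 and 10.05, within the 9.45 to 10.07 of the BAT arrays, whereas the other scWAT arrays read -4.63 to 4.39. Over the tested probes they correlated more with every BAT array (r = 0.960 to 0.981) than with replicate 1 of their own group (0.928 and 0.924). For some other genes they lay outside the BAT arrays. Retn was at 5.85 and 6.22 against at most 5.19 in BAT, and Fabp5 at 7.19 and 7.30 against at most 6.48. Of the other adipocyte markers, Adig, Cfd, Lep and Pparg lay within the range of the BAT arrays on both replicates, and adiponectin on replicate 2 alone. The paper reports more UCP1 staining in Lr11-/- than in WT scWAT. Whether these readings reflect the knockout or the identity of the samples was not tested, and the groups were kept as labelled. The muscle gene Acta1 was at 9.62 on WT scWAT replicate 3 and 9.40 on Lr11-/- scWAT replicate 1, against at most 1.46 on the other scWAT arrays. The arrays of this pair correlated with each other (r = 0.961 over the tested probes) more than either did with its own group. In BAT, Acta1 was at 7.91 and 7.29 on WT replicates 1 and 3 and at 6.85 on Lr11-/- replicate 1, against at most 0.58 on the other BAT arrays. Replicates are numbered here in the order of the sample list, and equal numbers pair no samples. Replicate 1 of every group belongs to the first of 2 array series that the sample titles name, and replicates 2 and 3 to the second. All adipocyte markers tested were well above background on all 12 arrays.

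All 5 lipolysis genes had a higher mean in Lr11-/- scWAT than in WT scWAT, by 2.62-fold (Abhd5) to 4.29-fold (Pnpla2), and none passed the test over all probes. Between the genotypes in BAT the means of Lr11-/- were 1.05-fold to 1.73-fold those of WT, and none passed there either. The lowest single reading of each gene was that of WT scWAT replicate 2, and without that array the differences in scWAT were smaller, at 0.90 to 1.35 (log2), while within the first array series they were smaller or turned.

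**Figure D1:**
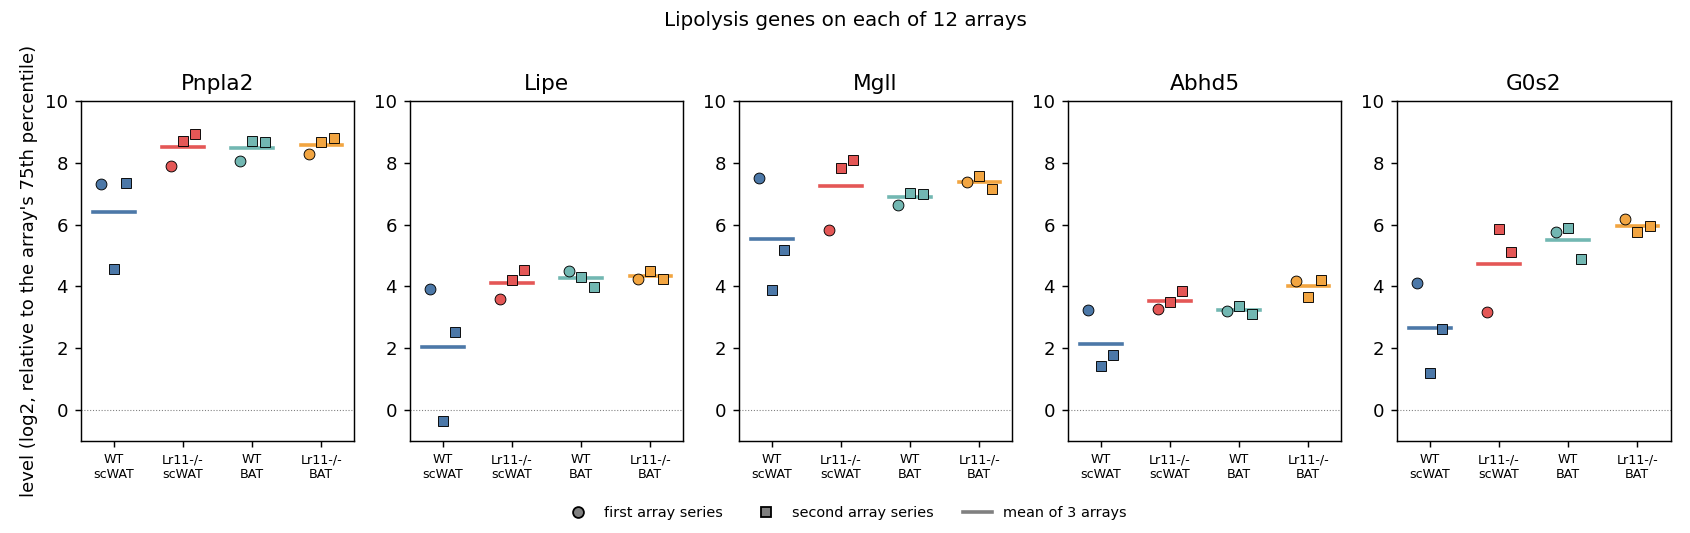
Level of each lipolysis gene (log2, relative to the array's 75th percentile) on each array by genotype and tissue, with circles for the first array series, squares for the second and lines for the mean of 3 arrays. WT scWAT spreads widely, from 4.57 to 7.34 for Pnpla2, whereas the BAT arrays of that gene lie between 8.05 and 8.79.

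Pnpla2, whose enzyme starts the breakdown of triglyceride, was read from probe A_55_P1961039. The WT scWAT arrays read 7.32, 4.57 and 7.34, those of Lr11-/- scWAT 7.90, 8.71 and 8.94. The WT BAT arrays read 8.05, 8.72 and 8.66, those of Lr11-/- BAT 8.27, 8.66 and 8.79. Every Lr11-/- scWAT array lay above every WT scWAT array, and Lr11-/- scWAT replicates 2 and 3 were at the level of BAT. The difference in scWAT was 2.10 ± 0.64 (log2, SE, 4.29-fold, limma adjusted p = 0.073), with a two-sided exact permutation p of 0.1, the smallest that 3 arrays against 3 can give. In BAT the genotypes overlapped and differed by 0.099 (log2, 95% interval -1.31 to 1.51, adjusted p = 1.0).

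Lipe, the gene of hormone-sensitive lipase, was read from probe A_51_P435363. For scWAT, WT arrays read 3.90, -0.34 and 2.53 and Lr11-/- arrays 3.60, 4.21 and 4.52. For BAT, WT arrays read 4.50, 4.29 and 3.98 and Lr11-/- arrays 4.24, 4.50 and 4.24. The genotypes overlapped in scWAT, since WT replicate 1 lay above Lr11-/- replicate 1, and WT replicate 2 stood far below all other arrays. The difference was 2.08 ± 0.81 in scWAT (log2, SE, 4.24-fold, limma adjusted p = 0.13). In BAT it was 0.069 (95% interval -1.71 to 1.85), the smallest genotype difference among the 5 genes.

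Mgll, which completes the breakdown to glycerol, has 4 probes. The brightest, A_55_P2063316, read 7.50, 3.89 and 5.18 for WT scWAT against 5.83, 7.84 and 8.09 for Lr11-/- scWAT. The BAT levels were 6.63, 7.04 and 6.98 on WT arrays and 7.39, 7.58 and 7.14 on Lr11-/- arrays. In scWAT the groups overlapped, with WT replicate 1 above Lr11-/- replicate 1, whereas in BAT every Lr11-/- array lay above every WT array. The log2 difference was 1.73 ± 0.81 (SE, limma adjusted p = 0.19) in scWAT and 0.49 (95% interval -1.30 to 2.27) in BAT. A pair of further probes gave 1.85 and 1.74 in scWAT and also held apart in BAT without passing the test. The last probe was dim, at -5.21 to -1.21, and gave -0.10 in scWAT, so it did not follow the others.

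Abhd5, the activator of PNPLA2, has 3 probes. The brightest, A_55_P2177233, read 3.24, 1.41 and 1.77 for WT scWAT against 3.25, 3.49 and 3.86 for Lr11-/- scWAT. The BAT levels were 3.21, 3.37 and 3.09 on WT arrays and 4.18, 3.66 and 4.21 on Lr11-/- arrays. The genotypes were apart in both tissues, in scWAT by a gap of only 0.014 between WT replicate 1 and Lr11-/- replicate 1. The difference was 1.39 ± 0.41 in scWAT (log2, SE, 2.62-fold, limma adjusted p = 0.068) and 0.79 ± 0.41 in BAT (1.73-fold, adjusted p = 1.0, unadjusted p = 0.079). The other probes gave 1.45 and 0.85 in scWAT, with overlap for the latter, and 0.84 and 0.80 in BAT, where every Lr11-/- array was above every WT array on each of the 3 probes.

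G0s2, the inhibitor of PNPLA2, was read from probe A_52_P681391. The WT scWAT arrays read 4.11, 1.21 and 2.61, those of Lr11-/- scWAT 3.18, 5.84 and 5.11. The WT BAT arrays read 5.75, 5.88 and 4.89, those of Lr11-/- BAT 6.18, 5.74 and 5.95. The genotypes overlapped in both tissues. The difference was 2.07 ± 0.75 in scWAT (log2, SE, 4.19-fold, limma adjusted p = 0.11) and 0.45 (95% interval -1.21 to 2.12) in BAT. In scWAT the sign of its difference was thus that of its target enzyme.

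Over the 5 genes, 0 passed the limma test for genotype in scWAT, where 5.27% of all probes did, and 4 had an unadjusted p under 0.05, as did 27.6% of all probes. In BAT 0 passed, against 0.0187% of all probes, and 0 had an unadjusted p under 0.05. The median difference of the 5 was 2.07 in scWAT and 0.45 in BAT (log2), against 0.042 and 0.039 for all probes. For the 6 adipocyte markers these medians were 1.32 and 0.30, and for the 5 brown adipocyte markers 6.29 and 0.11. Every Lr11-/- array was above every WT array for 2 of 5 in scWAT (Pnpla2 and Abhd5), where 11.7% of all probes showed this, and for 2 of 5 in BAT (Mgll and Abhd5), where 7.4% did. By limma's interaction test, 0 of the 5 passed for a difference of the genotype effects between the tissues, where 0% of all 32121 probes passed and 3537 had an unadjusted p under 0.05, as did 1 of the 5 genes. This was Pnpla2, with 2.0 ± 0.90 (log2, SE, limma adjusted p = 0.45).

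**Figure D2:**
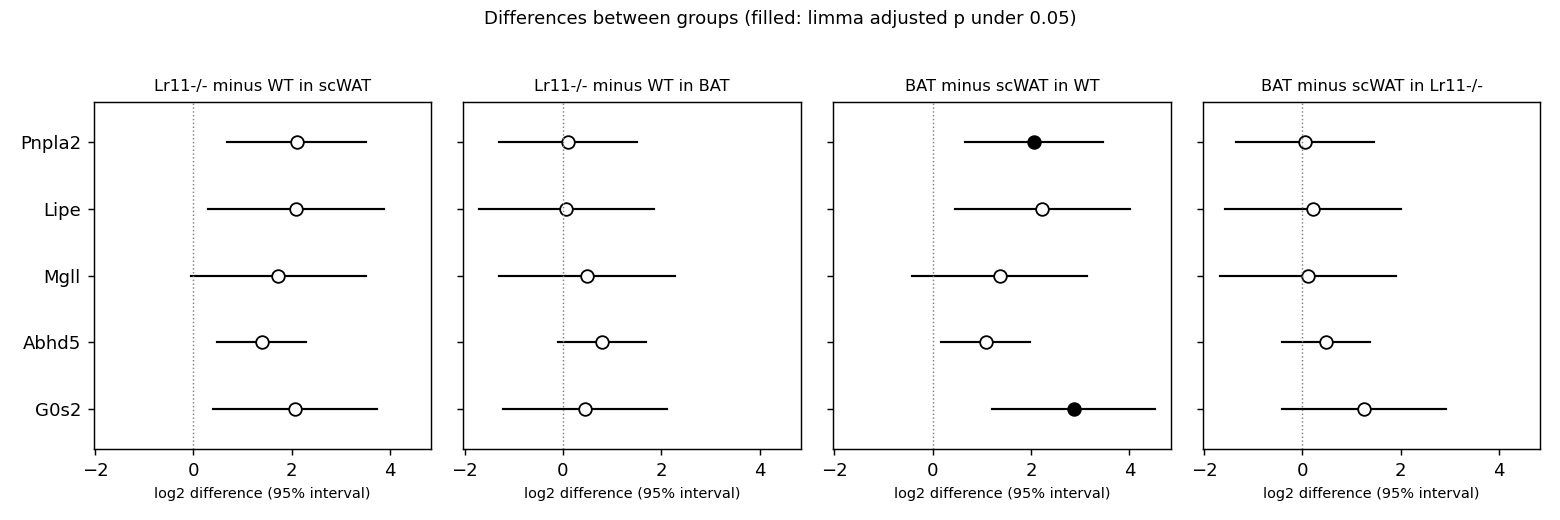
Log2 difference of each lipolysis gene in 4 comparisons between groups, with the 95% interval of the limma fit and filled points for an adjusted p under 0.05. The differences in scWAT by genotype and in WT by tissue lie to the right of 0, and only Pnpla2 and G0s2 in the latter comparison are filled.

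The result in scWAT depended on which arrays were used. In the first array series, with 1 array per group and no test, the difference was 0.58 for Pnpla2, -0.30 for Lipe, -1.67 for Mgll, 0.014 for Abhd5 and -0.92 for G0s2 (log2). In the second series, with 2 arrays per group, it was 2.08 to 3.56 and 4 of 5 passed, with Pnpla2 at an adjusted p of 0.052. Without WT scWAT replicate 1, which has the highest adipocyte marker level, all 5 passed in scWAT. Without the 3 scWAT arrays that stand apart (WT replicate 2 and Lr11-/- replicates 2 and 3), which was tried after the data were seen and leaves 1 Lr11-/- array, the median fell to 0.39 and Mgll and G0s2 turned to -0.51 and -0.18. With the mean of the adipocyte markers subtracted on each array, the median in scWAT was 0.98 and 0 of 5 passed. In BAT the median was 0.19 to 0.56 over all alternatives, and 0 of 5 passed in any.

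**Figure D3:**
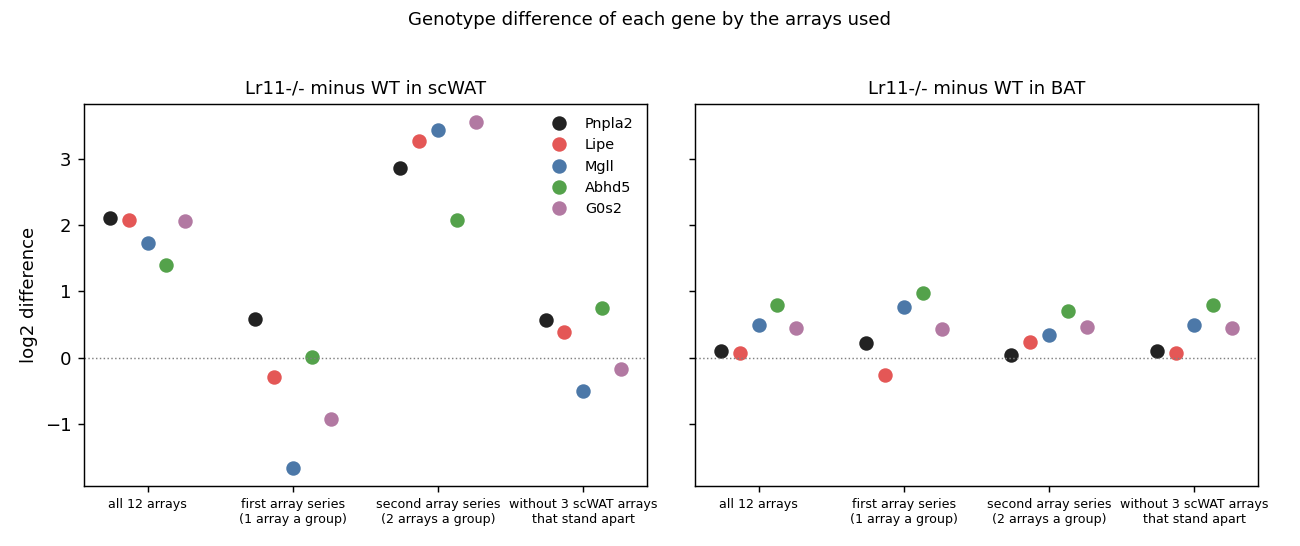
Log2 difference between genotypes of each lipolysis gene in scWAT and in BAT, from all 12 arrays, from each array series alone and without 3 scWAT arrays. In scWAT the points of the first series spread around 0 and those of the second lie between 2.08 and 3.56.

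Cell type markers moved with these genes across the scWAT arrays. The mean level of the 5 genes was 5.21, 2.15 and 3.89 on WT scWAT arrays, against 4.75, 6.02 and 6.10 for Lr11-/- scWAT. For the 6 adipocyte markers the WT arrays averaged 7.07, 2.55 and 5.40, the Lr11-/- arrays 5.89, 6.08 and 6.31, so that the lowest array was the same in both. For the 5 brown adipocyte markers these averages were -0.11, -4.38 and 2.86 against 3.72, 8.09 and 8.21, again with the same lowest array and the same highest pair, while 1 of the 3 WT arrays had Ucp1, Cidea and Elovl3 not well above background each. The mean of 4 fibroblast and matrix markers ran the other way, at 5.40 to 7.01 in WT scWAT and 3.61 to 4.82 in Lr11-/- scWAT. Of 5 skeletal muscle markers 2 were tested, with means of -1.23 to 9.38 in WT and -2.50 to 9.28 in Lr11-/- scWAT. The summed levels of 4 macrophage markers were 6.58 to 8.02 in WT scWAT and 6.14 to 6.35 in Lr11-/- scWAT, those of 4 endothelial markers 2.95 to 4.41 and 3.22 to 3.81, those of 3 epithelial markers -1.45 to 2.97 and -0.76 to 5.18, and those of 3 B lymphocyte markers -0.17 to 0.48 and -1.47 to -1.07 (log2 of the sum). The part of these cells in the differences of the lipolysis genes was not tested.

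**Figure D4:**
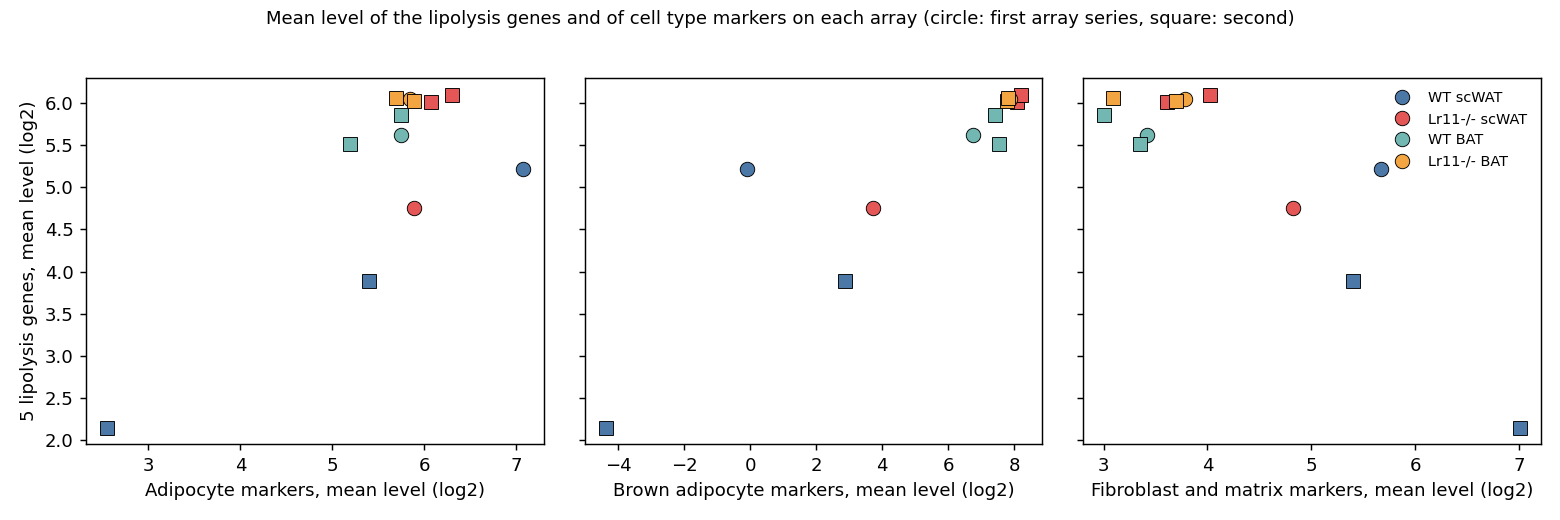
Mean level of the 5 lipolysis genes on each array against the mean level of adipocyte, brown adipocyte and fibroblast or matrix markers (all log2, relative to the array's 75th percentile), coloured by group. The array with the lowest lipolysis mean, 2.15, has the lowest adipocyte (2.55) and brown adipocyte (-4.38) means and the highest matrix mean (7.01).

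Between the tissues of WT mice, the lipolysis genes were higher in BAT than in scWAT by 2.11-fold (Abhd5) to 7.28-fold (G0s2) in their means. G0s2 (2.86 ± 0.75, log2, SE, limma adjusted p = 0.021) and Pnpla2 (2.06 ± 0.64, adjusted p = 0.039) passed the threshold, 2 of 5, where 15.7% of all probes passed it as higher in BAT. Lipe gave 2.23 (adjusted p = 0.066), Abhd5 1.08 (adjusted p = 0.075) and Mgll 1.36 (adjusted p = 0.23). Every BAT array lay above every scWAT array for Pnpla2, Lipe and G0s2, 3 of 5, where 24.3% of all probes showed this. Without WT BAT replicate 1 the adjusted p was 0.071 for Pnpla2 and 0.070 for G0s2, so that 0 of 5 passed, and 0 passed without WT BAT replicate 2. Without WT scWAT replicate 1 all 5 passed, and without WT scWAT replicate 2 only Pnpla2 did. In that last case the differences were 1.14 for Pnpla2, 1.05 for Lipe, 0.54 for Mgll, 0.72 for Abhd5 and 2.15 for G0s2 (log2). In the first series alone Mgll and Abhd5 turned, to -0.87 and -0.030. Each tissue had its own slide and scan day in that series, so tissue cannot be told apart from them there.

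In Lr11-/- mice the same comparison gave 0 of 5 past the threshold, where 0.0405% of all probes passed, and 0 with an unadjusted p under 0.05. The differences were 0.058 for Pnpla2 (log2, 95% interval -1.35 to 1.47), 0.22 for Lipe, 0.12 for Mgll, 0.48 for Abhd5 and 1.25 for G0s2 (-0.42 to 2.91). For 0 of 5 did every BAT array lie above every scWAT array, against 14% of all probes. The mean levels were thus ordered with WT scWAT lowest for each of the 5 genes and Lr11-/- BAT highest. The group next above WT scWAT was WT BAT for Pnpla2, Mgll and Abhd5, and this difference passed for Pnpla2 alone. For Lipe and G0s2 it was Lr11-/- scWAT, and the difference did not pass. Among the upper 3 groups neither the genotypes of BAT nor the tissues of Lr11-/- mice differed past the threshold for any gene. Each group enters both a genotype and a tissue comparison, so these comparisons share arrays.

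Within an array, the difference of 2 genes does not depend on how arrays were scaled, and 4 such differences were compared over 4 comparisons, 16 tests in all. G0s2 minus Pnpla2, inhibitor against enzyme, was -4.73 to -3.22 in WT scWAT, -4.72 to -2.87 in Lr11-/- scWAT, -3.76 to -2.30 in WT BAT and -2.92 to -2.09 in Lr11-/- BAT. Its genotype shift was -0.034 in scWAT and 0.35 in BAT (two-sided exact permutation p = 1 and 0.5, 3 arrays against 3). Abhd5 minus Pnpla2, activator against enzyme, shifted by -0.71 in scWAT and by 0.70 in BAT (exact permutation p = 0.4 and 0.2). Lipe minus Pnpla2 had the closest group means, from -4.41 to -4.22, and genotype shifts of -0.019 and -0.029. Its single arrays still ran from -4.92 to -3.43 in WT scWAT and from -4.68 to -3.55 in WT BAT. Mgll minus Lipe shifted by -0.35 in scWAT and 0.42 in BAT. No difference separated the groups of any comparison, and the smallest exact p was 0.2, or 0.71 after Benjamini-Hochberg adjustment over the 16.

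The 5 genes varied together from array to array in scWAT and less so in BAT, as a description over arrays that share slides and tissue. Over the 6 scWAT arrays the Pearson correlation of each pair was 0.85 to 0.96, and over the 6 BAT arrays -0.39 to 0.73. The genes also spread less in BAT, with SDs within a group of 0.14 to 0.53. In WT scWAT these SDs were 0.97 to 2.16 and in Lr11-/- scWAT 0.31 to 1.37. The ranges of r are therefore not comparable between the tissues. The genes most like Pnpla2 over all 12 arrays were Adipor2, an adiponectin receptor (r = 0.991), Nrg4, a growth factor secreted by brown fat (r = 0.990), and Acyp1 (r = 0.983). Lipe was nearest to Cdo1, cysteine dioxygenase (r = 0.989), Arl4a (0.985) and Acsl1, which activates long-chain fatty acids to acyl-CoA (0.984). Acsl1 did not follow Lipe over the 6 BAT arrays alone (r = -0.66). Mgll was nearest to Isoc1, Chp1 and Glrx5 (0.978 to 0.974), Abhd5 to Zfand6, Cdc26 and Ppa1 (0.963 to 0.958) and G0s2 to Isca2, Gm9199 and Iars2 (0.983 to 0.981). For the genes named with Abhd5 and G0s2, r over the 6 BAT arrays alone was 0.90 or more. Those arrays were among the 12 by which the genes were chosen, so this is no separate test.

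Around the core enzymes, 61 of 62 genes of the wider pathway were tested, and 8 of them passed for genotype in scWAT, 7 higher and 1 lower in Lr11-/-, where 3.4% of all probes passed as higher and 1.87% as lower. Of the lipolytic signal inputs 3 of 13 rose: Adrb3, the beta-adrenergic receptor of fat cells (mean level 1.54 in WT and 6.42 in Lr11-/-, 29.6-fold, limma adjusted p = 0.042), Adrb1 (7.79-fold, adjusted p = 0.046) and the adenylyl cyclase Adcy3 (4.55-fold, adjusted p = 0.036). Adrb1 was not well above background on 1 WT scWAT array. Of 11 other lipases and patatin family members tested 3 rose: the carboxylesterase Ces1f (7.52-fold, adjusted p = 0.030), the phospholipase Ddhd2 (7.34-fold, adjusted p = 0.028) and Abhd6, which can hydrolyse monoglycerides (7.31-fold, adjusted p = 0.047). The remaining calls were Pck1, 1 of 8 genes of glycerol and fatty acid handling, and Egr1, 1 of 6 transcription factors. Pck1, an enzyme of the pathway to glycerol 3-phosphate for re-esterification, was 13.7-fold higher (limma adjusted p = 0.033). Egr1, a repressor of Pnpla2 transcription, was 6.63-fold lower (limma adjusted p = 0.045).

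Further probes of these genes did not all read alike. The other probe of Adrb1 gave 1.29-fold with overlap of the genotypes (limma adjusted p = 0.61), that of Abhd6 3.24-fold (adjusted p = 0.0498) and that of Adrb3 13.3-fold (adjusted p = 0.015), and the 2 others of Ddhd2 gave 5.98-fold and 5.07-fold. Without WT scWAT replicate 2, the array low in fat cell genes, Adrb3 was 8.96-fold, Pck1 6.50-fold and Ces1f 4.39-fold higher and still passed, as did Adcy3, whereas Abhd6 (3.89-fold), Adrb1, Ddhd2 and Egr1 did not pass. Without WT scWAT replicate 3 Adrb3 was 60.6-fold and Pck1 24.3-fold higher. In the first array series alone the log2 difference was 0.0068 for Adrb1 and 0.28 for Abhd6. With the mean of the adipocyte markers subtracted on each array, 0 of the 8 passed, and Adra2a, the antilipolytic alpha-2A adrenergic receptor, was the 1 pathway gene that did. With the array series as a block 5 genes passed (Adcy3, Adrb3, Ces1f, Ddhd2 and Pck1), with the slide as a block 5 (Egr1 in place of Adrb3), and with no filter on dim probes 0.

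Of the 10 droplet regulators and the 13 antilipolytic inputs 0 passed in scWAT, where 5.27% of all probes did. The genes of largest difference were Plin5, a perilipin of oxidative tissues (3.68 ± 1.16, log2, SE, limma adjusted p = 0.080), and Hilpda, a further inhibitor of PNPLA2 (-2.44 ± 0.80, adjusted p = 0.088), among the former. Among the latter they were Adra2a (-4.22 ± 1.17, adjusted p = 0.059), and Adora1, the adenosine receptor (1.94, adjusted p = 0.25). At unadjusted p under 0.05 there were 4 of the 10 droplet regulators and 4 of the 13 antilipolytic inputs, against 27.6% of all probes. The median log2 difference in scWAT was 1.05 for droplet regulators, 0.62 for other lipases, 0.45 for lipolytic inputs, 0.43 for antilipolytic inputs, 0.87 for transcription factors and 2.01 for glycerol and fatty acid handling, against 2.07 for the 5 core genes and 0.042 for all probes.

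In BAT 0 of these 61 genes passed for genotype, and the medians of the lists were 0.041 to 0.15. Adrb3 differed by 0.17 and Pck1 by 0.034 (log2). Egr1 was also lower in Lr11-/- BAT, by -3.81 ± 0.66, with every array below every WT array and a limma adjusted p of 0.31. Between the tissues of WT mice 18 of the 61 were higher and 3 lower in BAT (15.7% and 9.13% of all probes), among them Adrb1 (5.61, log2) and Plin5 (4.79) higher and Adra2a lower by at least 34.3-fold, since it was not well above background on any WT BAT array. The scWAT calls changed with the arrays used. Without any 1 of the 6 BAT arrays, 0 pathway genes passed the threshold. The count was also 0 without Lr11-/- scWAT replicate 2 or 3, and 5 to 23 without any of the other 4. Among the genes called higher, Ddhd2 read 3.40 and 3.59 on Lr11-/- scWAT replicates 2 and 3 against 1.42 on replicate 1. Adrb1 read 0.54 and 0.34 there against -2.44, Abhd6 1.47 and 1.42 against -0.29 and Adcy3 0.48 and 0.49 against -0.67. Adrb3 read 6.53 and 6.65 against 6.08, Ces1f 4.47 and 4.47 against 4.25 and Pck1 7.97 and 8.46 against 8.03. A fit without both replicates leaves 1 Lr11-/- scWAT array, so its pathway calls are not given.

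**Figure D5:**
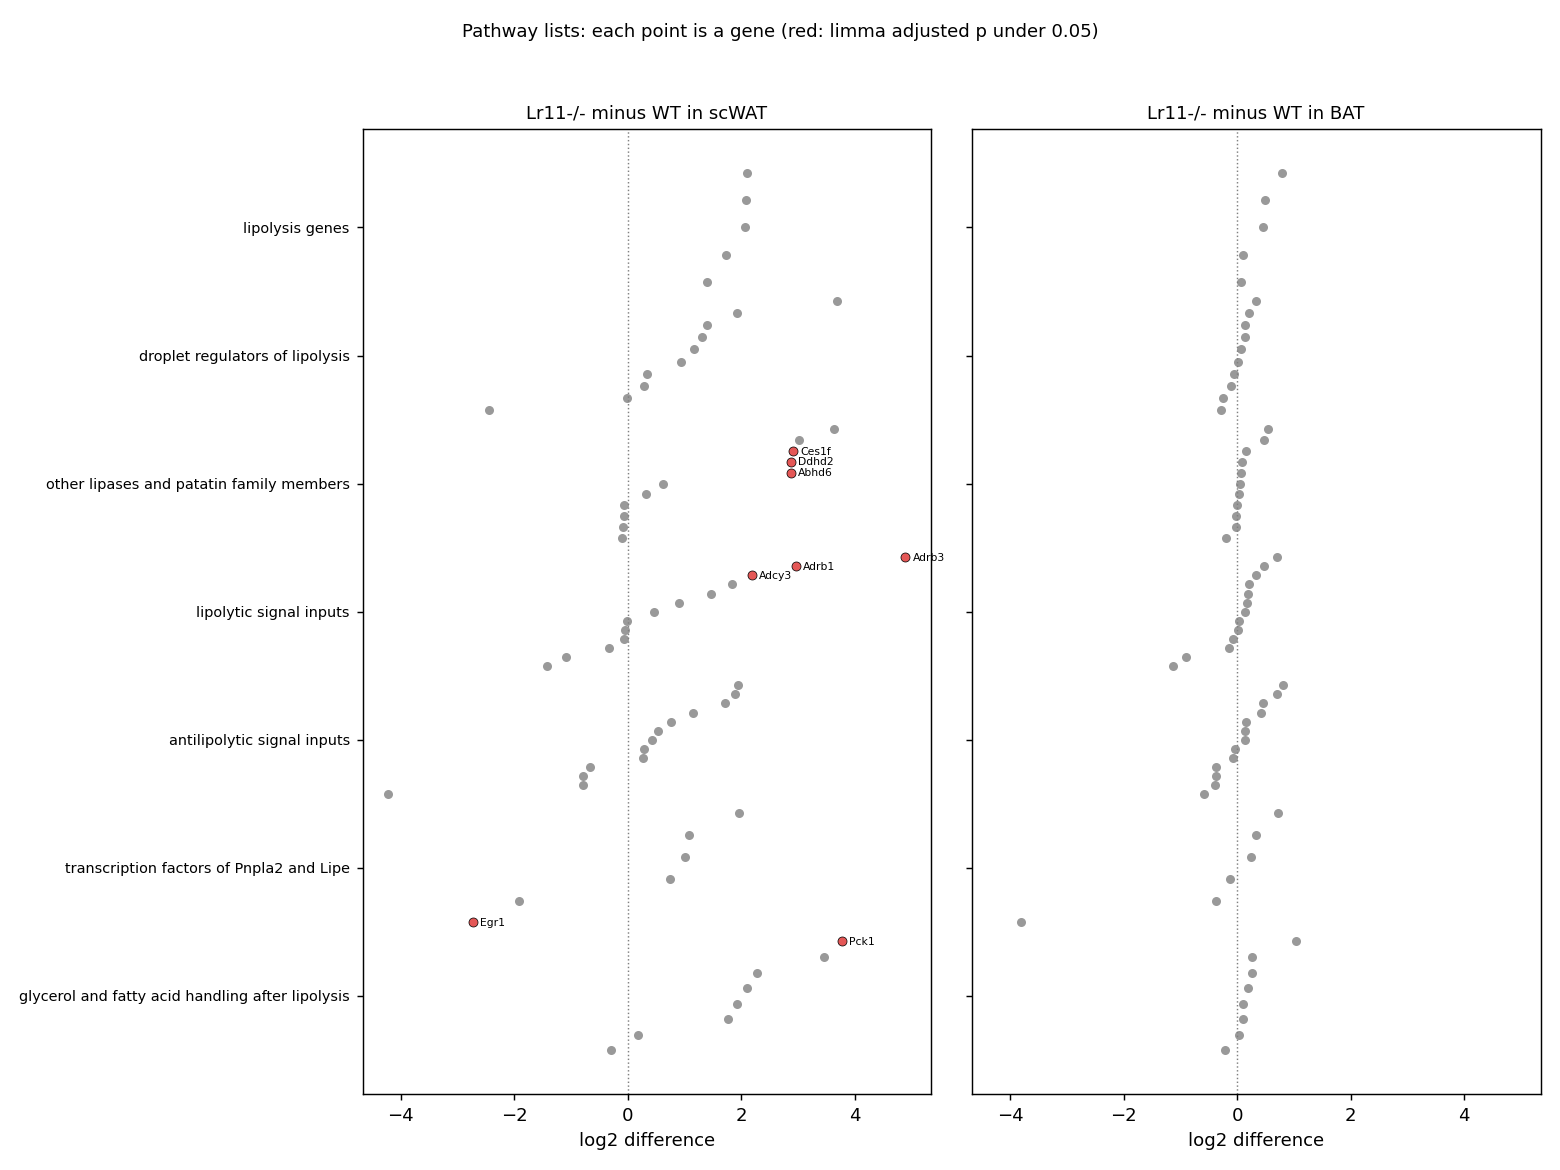
Log2 difference between genotypes for every tested gene of the core list and of 6 lists of the wider pathway, in scWAT and in BAT, with red points for a limma adjusted p under 0.05. The 8 red points, 7 to the right of 0 and Egr1 to the left, are all in scWAT.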

How the data were processed

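RNA of 12 samples was hybridised to one-colour Agilent arrays. The authors deposited spot intensity values from Agilent Feature Extraction 10.10, which subtracts the background and removes spatial trends inside an array but leaves arrays unscaled against each other. Here log2 values were taken without outlier spots and set relative to each array's 75th percentile, and the spots of a probe were averaged. A probe was tested if at least 1 group had it well above background on all of its 3 arrays (32121 of 55681). limma 3.58.1 in R 4.3.3 was run once over 4 group means, and a call needs a Benjamini-Hochberg adjusted p under 0.05 across those probes. Single values were compared by two-sided exact permutation tests. Precision is limited by the number of arrays and by signal over background. Genes were named through RefSeq accessions (27235 of 28685 probes with one) and read from the brightest tested probe. The array was designed on another assembly than the gene table, so probes are given no coordinates. The steps were run on simulated data with the same spread in every group. That run therefore cannot show how the fit does where scWAT arrays spread more than BAT arrays, as here. If a group had a gene dim on every array, its readings there were replaced by the array's weakest detected signal and the fold is given as "at least".

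Besides the core genes and Sorl1, from each pathway list up to 3 genes of largest absolute difference among those past the threshold in scWAT are named, or else the 2 of largest difference. For likeness, the 3 genes of highest Pearson correlation over 12 arrays are named. Members and lists were chosen with earlier results of these data known. Alternatives were other scalings, background correction by normexp with an offset of 50 on median signals, other filters, outlier spots kept, array series or slide as a block, either series by itself, eBayes with a trend and robust settings, weights per array, fits limited to a comparison's own arrays, all probes of a gene and each array left out. The sets of 2 and of 3 scWAT arrays left out together, and the alternatives for single pathway genes, were chosen after seeing the data. Figures were drawn with matplotlib 3.10.9.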

Additional observations from a re-analysis of the deposited data

How the results depend on the processing

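Of 725 differences recomputed for single genes, 690 kept their direction. Part of them could not turn, so this share does not measure stability. An array outside a comparison does not enter its difference of means: without WT BAT replicate 1, Pnpla2 in scWAT stayed at 2.10. Other filters, the eBayes settings and fits limited to a comparison's own arrays likewise change p and not this difference. In scWAT by genotype, 0 of 5 passed as reported, 2 under array weights, 4 within the second series, and 0 to 5 with 1 array left out (5 without WT replicate 1, 3 without Lr11-/- replicate 1, 1 without WT replicate 3). The median there was -0.30 in the first series, with Lipe at -0.30, Mgll at -1.67 and G0s2 at -0.92, and 0.39 without the 3 scWAT arrays that stand apart, with Mgll at -0.51 and G0s2 at -0.18. Between the tissues of WT mice, 2 passed as reported, 1 with quantile normalization, with no scaling, with no filter or without the 2 Lr11-/- scWAT arrays at the BAT level, 0 with only the arrays of the comparison, 4 in the second series and 0 to 5 with 1 array left out. In the first series, where each tissue had its own slide and scan day, this median was 0.61, with Mgll at -0.87 and Abhd5 at -0.030. In Lr11-/- mice G0s2 passed without the 3 arrays, a fit that leaves 1 Lr11-/- scWAT array and takes it to vary like the other groups, as does leaving out the 2. The median of the interaction was 3.04 in the second series, -0.96 in the first (Lipe -0.029, Mgll -2.43, Abhd5 -0.96, G0s2 -1.36), 0.32 without the 2 arrays (Mgll -0.18) and -0.048 without the 3 (Mgll -0.997, Abhd5 -0.048, G0s2 -0.63), and Abhd5 was at -0.24 with the adipocyte mean subtracted.

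The other reversals were of differences near 0. For genotype in BAT, Lipe was at -0.0098 with quantile normalization, -0.18 with the adipocyte mean subtracted and -0.27 in the first series, and Pnpla2 at -0.15 with the adipocyte mean subtracted, while leaving out 1 array gave -0.11 to 0.25 for Pnpla2 and -0.071 to 0.19 for Lipe. Between the tissues of Lr11-/- mice, Pnpla2 was at -0.031 with quantile normalization, -0.069 with no scaling, -0.098 in the second series and -0.079 with array weights, and Mgll at -0.0097, -0.60 and -0.48 with the latter 3. Leaving out 1 array gave -0.25 to 0.27 for Pnpla2, -0.038 to 0.42 for Lipe and -0.59 to 0.53 for Mgll there. The cause was not tested.

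The number of all probes past the threshold was unstable. For genotype in scWAT it was 1692, against 0 with only the arrays of the tissue, 151 with no filter, 838 with no scaling, 1294 with the series and 911 with the slide as a block, 7365 in the second series and 17 to 6401 with 1 array left out. It was 0 to 73 for genotype in BAT, 0 to 1526 for the interaction, 3104 to 10605 between the tissues of WT mice and 0 to 5455 between those of Lr11-/- mice over the alternatives. The pathway genes past it in scWAT numbered 8, and 0 to 30 over the alternatives: 0 with only the arrays of the tissue or no filter, 1 with the adipocyte mean subtracted, 5 with either block and 30 in the second series. Of the pathway genes named, Adora1 turned, to -1.84 in the first series and -0.85 without the 3 arrays. In the first series no test was possible with 1 array per group, and with the slide as a block or the adipocyte mean subtracted only genotype comparisons were made. No paired analysis was possible because the labels carry no replicate numbers, and those used here follow the order of the sample list.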
